A study of Mus musculus with 4 samples.

Results

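*Srpx2* and the genes of the plasminogen activator system around it were followed in RNA-seq data from mouse tail tip fibroblasts (TTF) with and without an *Xist* transgene. The 7 genes were taken by symbol from the 23924 genes of the expression matrix: *Srpx2* and its relative *Srpx*, the activators *Plau* and *Plat*, the urokinase receptor *Plaur*, and the serpins *Serpine2* and *Serpinf1*. Of these, 6 had a mean of at least 0.5 FPKM (fragments counted for a gene, here called reads, over its length and the library total), as had 11524 genes in all, and *Srpx* did not. *Srpx2* was chosen with its difference between genotypes already known. The differences of the 7 genes are therefore given as a description, without a test.

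The cells came from tail tips of male littermates of the C57BL/6J-TgBAC8-2087 line, either Tg2087/+ (TG, 2 libraries) or +/+ (WT, 2 libraries). The transgene of this line is a stretch of the *X-inactivation center* (*Xic*) that includes *Xist*, placed in an autosome and transcribed from its own sequences. Cells of both genotypes were immortalized with the SV40 large T antigen, which made them tetraploid, and were handled in parallel. The labels give no age of the mice and leave it unsaid if the WT 1 and WT 2 libraries, or TG 1 and TG 2, stem from different mice or cultures, so their spread may be technical, and a comparison of TG with WT may also be one of 2 cell lines.

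The plasminogen activator system is a proteolytic cascade at the cell surface. Urokinase (*Plau*) and tissue plasminogen activator (*Plat*) cut plasminogen into plasmin, which degrades fibrin and matrix proteins, and the urokinase receptor (*Plaur*) holds urokinase at the membrane. Serpins stop the activators, and endocytic receptors clear the complexes. SRPX2 is a secreted sushi-repeat protein that binds the urokinase receptor and is known from endothelial cell migration and from brain development, where the transcription factor FOXP2 represses both *SRPX2* and *PLAUR*.

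*Srpx2* (Entrez 68792) lies on Chr X at 133908416-133932448 on the plus strand (RefSeq genes, GRCm38.p6), and *Srpx* (51795) on the same chromosome at 10037977-10117640 on the minus strand. *Plau* (18792) lies on Chr 14 at 20836662-20843388 on the plus strand, *Plat* (18791) on Chr 8 at 22757722-22782848 on the plus strand, and *Plaur* (18793) on Chr 7 at 24460937-24475970 on the plus strand. *Serpine2* (20720) lies on Chr 1 at 79794317-79858665 on the minus strand and *Serpinf1* (20317) on Chr 11 at 75410029-75422623 on the minus strand. *Srpx* is overlapped on its own strand by *Rpgr*, whose reads the counting may not have kept apart from those of *Srpx*. The 7 genes thus sit on 6 chromosomes, and only *Srpx2* and *Srpx* share one.

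Upstream sequences are shown for *Srpx2* and *Serpine2*, the members with the lowest log2 differences between TG and WT, and for *Plaur*, the member with the highest. Each is the 250 bases before a RefSeq transcript start, 5′ to 3′ on the strand of the gene (GRCm38.p6), with capitals marking matches to any of 6 motifs searched on both strands: TATAAA (the core of a TATA box), GGGCGG (the GC box), CCAAT (bound by NF-Y), TGANTCA (AP-1), CACGTG (E-box) and TGTTTAC (forkhead). The windows are chrX:133908175-133908424 (plus strand) for *Srpx2*, chr1:79858666-79858915 (minus strand) for *Serpine2* and chr7:24462233-24462482 (plus strand) for *Plaur*. The starts behind the *Srpx2* and *Plaur* windows lie inside the gene bodies given above. The bases that follow these starts were not found in the GENCODE transcripts of the gene, unlike those of *Serpine2*.
Srpx2: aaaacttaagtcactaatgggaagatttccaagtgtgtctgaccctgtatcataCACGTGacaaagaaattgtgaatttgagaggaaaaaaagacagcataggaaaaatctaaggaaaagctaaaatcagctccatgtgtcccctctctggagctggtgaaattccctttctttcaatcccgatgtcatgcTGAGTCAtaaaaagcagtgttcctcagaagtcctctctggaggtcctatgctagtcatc
Serpine2: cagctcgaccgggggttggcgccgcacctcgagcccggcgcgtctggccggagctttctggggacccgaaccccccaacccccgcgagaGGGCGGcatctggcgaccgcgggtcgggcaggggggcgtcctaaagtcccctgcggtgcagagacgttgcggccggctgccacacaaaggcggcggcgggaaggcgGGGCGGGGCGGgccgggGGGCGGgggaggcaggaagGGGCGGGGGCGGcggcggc
Plaur: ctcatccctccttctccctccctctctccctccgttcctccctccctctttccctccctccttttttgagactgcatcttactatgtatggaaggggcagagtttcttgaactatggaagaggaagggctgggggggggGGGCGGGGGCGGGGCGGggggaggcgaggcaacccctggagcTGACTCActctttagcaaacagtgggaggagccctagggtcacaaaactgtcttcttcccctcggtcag

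The 3 windows differ in composition. That of *Srpx2* held 41.2% G and C, that of *Plaur* 59.6% and that of *Serpine2* 78.8%, against a median of 52.4% over 32851 RefSeq windows of the same length. The *Srpx2* window held TGAGTCA at positions -59 to -53 and CACGTG at -196 to -191, counted back from the transcript start, and the *Plaur* window held TGACTCA at -69 to -63. TGANTCA occurs in 6.75% of all windows and CACGTG in 6.02%. The *Serpine2* window held GGGCGG 6 times and the *Plaur* window 3 times, 1 pair in each overlapping by a base, and 32.7% of all windows hold it at least once. Of the other members with an entry, *Srpx* held 1 GGGCGG and *Serpinf1* held CCAAT 3 times (33.8% of all windows). TATAAA (12.4% of all windows) and TGTTTAC (3.17%) matched in none of the 5 windows. A match describes these letters and is not evidence of a bound site.

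The library totals, worked out from the steps between low FPKM values, ran from 9465712 to 14639946 reads, so the most deeply sequenced library had 1.55 times the reads of the shallowest. *Xist* stood at 0 and 0.108 FPKM in WT 1 and WT 2 and at 2.31 and 2.28 FPKM in TG 1 and TG 2 (0, 28, 489 and 449 reads), in the direction of the labels. The 12 listed fibroblast genes summed to 5709 to 6650 FPKM in a library, much of it from *Vim* (2147 to 2547 FPKM) and *S100a4* (1415 to 1965 FPKM). Among the 12, *Lum* was at 0 in all 4 libraries, *Dcn* reached at most 0.878 FPKM and *Pdgfra* at most 1.13 FPKM. Markers of leukocytes (*Ptprc*, *Adgre1*, *Itgam*, *Tyrobp*) were at 0 in all libraries, and 7 endothelial markers together reached at most 0.603 FPKM. The other leukocyte markers left sums of 9.33 to 16.3 FPKM, nearly all from *Cd68* and *Cd14*, while the sums reached 3.17 FPKM for 8 keratinocyte, 2.16 for 5 Schwann cell and 0.239 for 5 melanocyte markers. The 6 smooth muscle markers summed to 8745 and 9037 FPKM in WT and to 4150 and 4840 FPKM in TG, mostly from *Acta2* and *Tagln*. *Cnn1* stood at 700 and 661 FPKM in WT, and 168 and 232 in TG. *Smtn* overlapped between genotypes, at 93.6 and 124 FPKM in WT, and 92.0 and 97.8 in TG. *Myh11* and *Des* reached at most 0.376 and 0.435 FPKM in any library. The 5 cartilage markers summed to 2.61 and 2.99 FPKM in WT, and 7.91 and 10.3 in TG, mostly from *Sox9*. The sums of both lists differed between genotypes, as did the genes described here, and their part in the results was not tested. In cultures measured in bulk, fewer cells that express a gene and less RNA of it per cell cannot be told apart.

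*Srpx2* was reduced by 95.4% in TG cells. It stood at 20.1 FPKM in WT 1 and 22.2 in WT 2, and at 1.63 in TG 1 and 0.326 in TG 2. Both TG libraries lay far below both WT libraries, and TG 1 was the higher of the TG pair, at 7.71% of the WT mean against 1.54% in TG 2. These levels rested on 529 and 902 reads in WT and on 54 and 10 in TG, whose exact 95% Poisson intervals, which cover counting error only, were 1.23 to 2.13 FPKM in TG 1 and 0.156 to 0.599 FPKM in TG 2. The intervals did not overlap, so the TG libraries differed from each other by more than counting error, and both were clearly above 0. The genotype means were 21.2 ± 1.46 and 0.979 ± 0.924 FPKM (SD, n = 2 each).

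On the scale of log2(FPKM + 0.5), on which all log2 differences below were computed as TG minus WT, *Srpx2* differed by -4.03 (standard error, SE, 0.38). It ranked 3rd from the lowest of the 11524 genes. The median difference of all these genes was 0.071. Without TG 1 the difference of *Srpx2* was -4.71 and without TG 2 it was -3.34. In level, *Srpx2* stood at the 51.8th percentile of the tested genes by its mean over all libraries.

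*Srpx*, the paralog of *Srpx2*, was barely detected. It stood at 0.139 and 0.0896 FPKM in WT 1 and WT 2, which is 3 reads each, and at 0 in TG 1 and TG 2. A count of 0 allows up to 0.110 FPKM in TG 1 and 0.119 FPKM in TG 2 (3 reads), which is about the WT level, so a difference in *Srpx* was not detectable at this depth.

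The activators were higher in TG cells. *Plau*, which encodes urokinase, stood at 13.8 and 15.5 FPKM in WT, and at 20.0 and 19.0 in TG. The groups did not overlap, and the mean was 33.3% higher in TG (14.7 ± 1.25 and 19.5 ± 0.704 FPKM, SD, n = 2 each; log2 difference 0.40, SE 0.19). *Plat*, which encodes the tissue-type activator, stood at 19.5 and 20.4 FPKM in WT, and at 32.2 and 44.3 in TG. Its groups did not overlap either, and the TG pair was the less even, with TG 2 above TG 1. The means were 20.0 ± 0.700 and 38.2 ± 8.57 FPKM (SD, n = 2 each), a ratio of 1.92, and the log2 difference of 0.90 (SE 0.20) was 1.13 without TG 1 and 0.68 without TG 2.

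*Plaur*, the receptor that SRPX2 and urokinase both bind, was the most even of the 6 tested members between libraries of a genotype. It stood at 31.3 and 30.7 FPKM in WT, and at 59.9 and 59.7 in TG. The libraries of each genotype lay within each other's counting intervals, and TG was 1.93 times as high as WT (31.0 ± 0.437 and 59.8 ± 0.0931 FPKM, SD, n = 2 each; log2 difference 0.94, SE 0.17). *Plaur* was thus higher in the libraries in which its ligand gene *Srpx2* was lower, and the ratio of *Plaur* to *Srpx2* FPKM within a library was 1.56 and 1.38 in WT against 36.7 and 183 in TG.

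The serpins among the 7 genes were lower in TG. *Serpine2* encodes protease nexin-1, which inhibits thrombin, urokinase and tissue plasminogen activator. It stood at 3.60 and 2.15 FPKM in WT, and at 0.924 and 0.379 in TG, from 65, 60, 21 and 8 reads. The groups did not overlap, but both were uneven and the counts were low. The mean was 77.3% lower in TG (2.88 ± 1.03 and 0.652 ± 0.385 FPKM, SD, n = 2 each), with a log2 difference of -1.56 (SE 0.39), the 67th from the lowest.

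*Serpinf1* encodes PEDF, a secreted serpin without inhibitory activity that is known as an inhibitor of angiogenesis. It stood at 134 and 164 FPKM in WT, and at 108 and 110 in TG. The groups did not overlap, although the WT libraries differed from each other by more than WT 1 differed from TG. The mean was 26.9% lower in TG (149 ± 20.9 and 109 ± 1.19 FPKM, SD, n = 2 each), a log2 difference of -0.44 (SE 0.18).

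**Figure D1:**
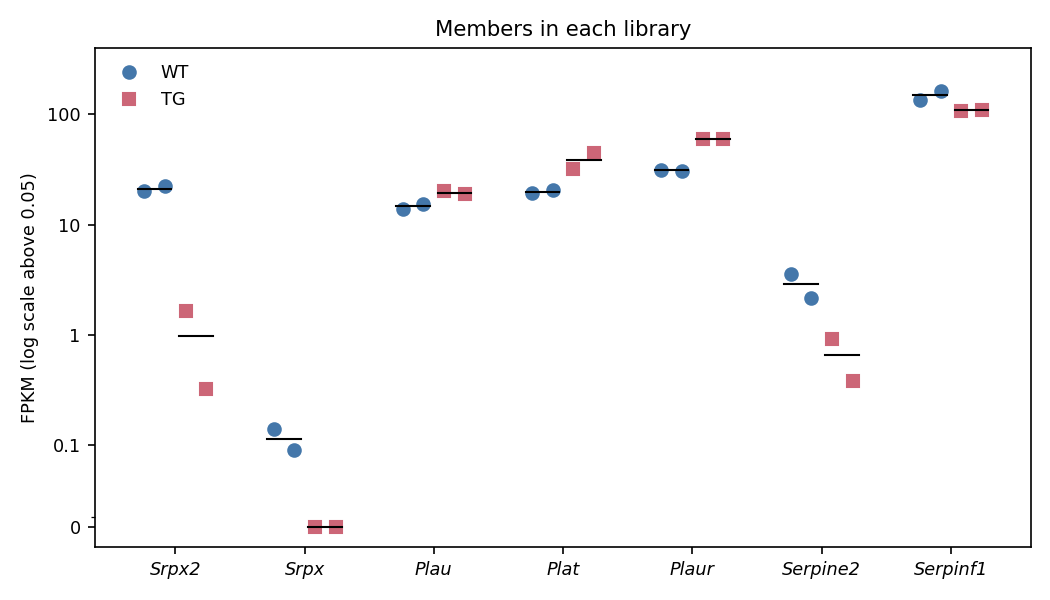
FPKM of the 7 genes in each library (vertical axis on a log scale above 0.05, linear below), with WT as circles, TG as squares and the genotype mean as a bar. *Srpx2* lies at 20.1 and 22.2 FPKM in WT but 1.63 and 0.326 FPKM in TG, *Plau*, *Plat* and *Plaur* sit higher in TG, and *Srpx* is at 0 in both TG libraries.

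All 7 genes had groups that did not overlap, with *Srpx2*, *Srpx*, *Serpine2* and *Serpinf1* lower and *Plau*, *Plat* and *Plaur* higher in TG. Such separation was common, since 50.5% of the 11524 tested genes had it with 2 libraries against 2 (20.3% lower and 30.2% higher in TG). A gene was called when limma with a variance trend gave an adjusted p (Benjamini-Hochberg) under 0.01 and a log2 difference of at least 1 in size. By that rule *Srpx2* was the 1 member of the 6 tested that was called lower, and 0 were called higher, where 0.469% of all tested genes were called lower (54) and 0.607% higher (70), 1.08% in all. Since the genes were chosen with this contrast in view, nothing is read from that count. *Xist* itself was not called by the rule (log2 difference 2.34, limma adjusted p = 0.011). By limma's voom method on whole reads it was called higher (6.55, adjusted p = 6.6e-04). The call of *Srpx2* was lost without WT 1 (log2 difference -4.10) and without WT 2 (-3.96). Of all tested genes, 1 was called lower and 0 higher without WT 1, and 2 lower and 7 higher without WT 2. With 2 libraries on each side, the smallest p of an exact permutation test is 0.333.

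The order of the levels, which FPKM allows between genes because it is per length, changed between genotypes at *Srpx2* alone. In WT it ran *Serpinf1*, *Plaur*, *Srpx2*, *Plat*, *Plau*, *Serpine2*, *Srpx*, and the ranges of *Srpx2* and *Plat* overlapped. In TG it ran *Serpinf1*, *Plaur*, *Plat*, *Plau*, *Srpx2*, *Serpine2*, *Srpx*, and the ranges of *Srpx2* and *Serpine2* overlapped. Within a library, *Srpx2* was 1.46 and 1.43 times the FPKM of *Plau* in WT and 0.0815 and 0.0171 times in TG.

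**Figure D2:**
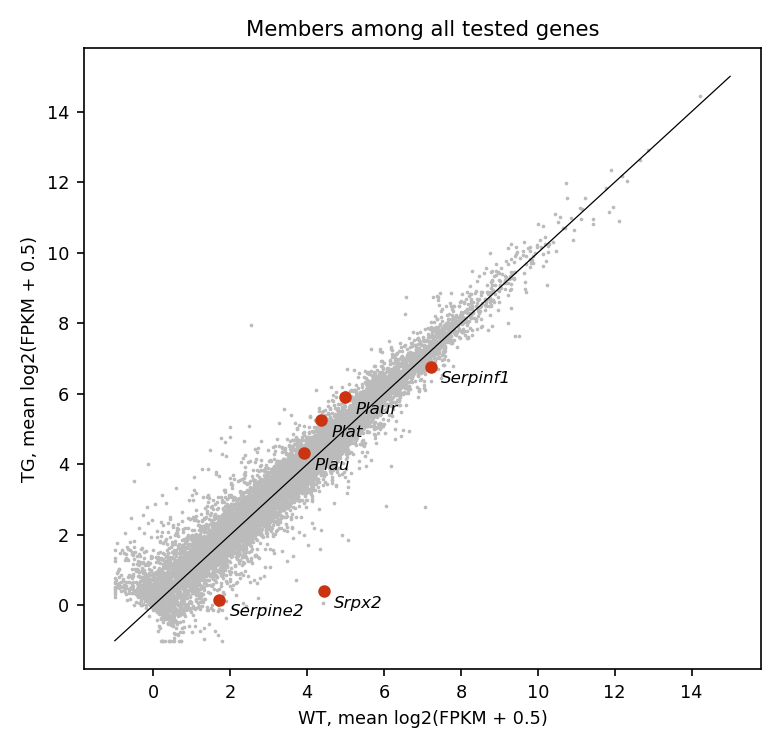
Mean log2(FPKM + 0.5) in TG against WT for all 11524 tested genes (grey) with the 6 tested members marked in red and the line of equality. *Srpx2* lies far under the line, with a log2 difference of -4.03, *Serpine2* lies below it at a low level, and *Plau*, *Plat* and *Plaur* lie above it.

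The wider plasminogen system was followed with a list of 63 genes in 7 roles, of which 35 were tested and 16 were at 0 in all libraries. *Itgb3*, the integrin beta 3 subunit that pairs with alpha V to bind vitronectin beside the urokinase receptor, was the 1 gene called lower, and 0 were called higher, where 0.469% and 0.607% of all tested genes were. By limma's voom method on whole reads, 5 were called lower and 0 higher, where voom called 1.24% and 1.05% of all genes. An unadjusted p under 0.05 in the fit on FPKM was reached by 8 lower and 5 higher list genes, and by 6.88% and 12.7% of all tested genes. Groups that did not overlap were found for 11 lower and 14 higher genes (71.4%, against 50.5% of all tested genes), and the median log2 difference was 0.10 against 0.071 for all tested genes.

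*Plg*, which encodes plasminogen, and 5 more of the 9 zymogens and substrates were at 0 in all libraries, among them the fibrinogen chains *Fga*, *Fgb* and *Fgg*. The 1 tested gene of this role, *Hgf*, a growth factor that urokinase and related proteases activate, stood at 0 and 0.205 FPKM in WT, and at 1.24 and 0.769 in TG. The groups did not overlap, at a low level, and the log2 difference of 1.32 did not pass (limma adjusted p = 0.15).

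Of the 12 inhibitors, *Serpinb6a*, an intracellular serpin, stood at 154 and 119 FPKM in WT, and 167 and 158 in TG. The groups did not overlap, although the genotype means differed by less than the WT libraries did from each other, and the log2 difference of 0.26 did not pass (limma adjusted p = 0.49). Set against *Plau* within each library, *Serpinf1* was 9.74 and 10.5 times as high in WT and 5.39 and 5.76 times in TG, and *Plaur* was 2.27 and 1.98 times as high in WT and 2.99 and 3.14 times in TG.

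Of 6 plasminogen receptors, 5 were tested, and *Krt8* was at 0 in all libraries. Of the 5, 2 (*Eno1* and *Hmgb1*) were higher in TG without overlap and 0 lower, where 30.2% and 20.3% of all tested genes were. *S100a10*, which binds plasminogen in a complex with annexin A2, stood at 999 and 802 FPKM in WT, and 1124 and 982 in TG (log2 difference 0.23, limma adjusted p = 0.59). *Anxa2*, its partner, stood at 941 and 654 FPKM in WT, and 914 and 1028 in TG (log2 difference 0.30, adjusted p = 0.50). Both of these receptor genes, the most abundant of the role, overlapped between genotypes. Of the 5 tested in this role, 0 were called, and 1 was higher at an unadjusted p under 0.05 (12.7% of all tested genes). By voom 0 were called.

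Of 8 clearance and uptake receptors tested, 5 had both TG libraries below both WT libraries and 0 had the reverse, where 20.3% and 30.2% of all tested genes did, and the median log2 difference was -0.63. In the fit on FPKM 0 were called, and 3 were lower at an unadjusted p under 0.05, where 6.88% of all tested genes were. Voom called 3 lower (*Sort1*, *Sorl1* and *Lrp2*), where it called 1.24% of all genes. *Lrp1*, which internalizes complexes of activators with serpins such as protease nexin-1 together with the urokinase receptor, stood at 41.8 and 36.4 FPKM in WT, and at 20.0 and 35.3 in TG. TG 2 lay close to WT 2, and the log2 difference of -0.54 (SE 0.25) did not pass (limma adjusted p = 0.27). *Sort1*, a sorting receptor of the trans-Golgi network chosen for mention after its values were seen, stood at 7.42 and 9.84 FPKM in WT, and 2.93 and 4.29 in TG. Its log2 difference was -1.16 (limma adjusted p = 0.037), and voom called it lower (-1.36, adjusted p = 8.7e-04).

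Receptors that act beside the urokinase receptor at the membrane differed in both directions, 4 of 9 tested being lower and 4 higher without overlap (20.3% and 30.2% of all tested genes). *Itgb3* stood at 11.3 and 12.6 FPKM in WT, and at 2.68 and 3.87 in TG. Its groups lay well apart, with a log2 difference of -1.74 (SE 0.24, limma adjusted p = 0.0044) and a reduction of 72.6%. The call was lost without WT 1 (adjusted p = 0.059), without WT 2 (0.11) and without TG 1 (0.017), and held without TG 2 (0.0037). *Pdgfrb*, a growth factor receptor of mesenchymal cells that associates with the urokinase receptor, stood at 56.8 and 57.3 FPKM in WT, and 31.7 and 26.8 in TG. Its log2 difference of -0.96 (limma adjusted p = 0.016) was short of the size and of the adjusted p required, and voom called it lower (-1.03, adjusted p = 3.2e-04). *Itgb1*, the common beta 1 integrin subunit, stood at 414 and 374 FPKM in WT, and 331 and 326 in TG (log2 difference -0.26, limma adjusted p = 0.46). *Vtn*, which encodes vitronectin, was at 0 in all libraries.

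Of the genes tied to SRPX2 itself, 4 of 5 were tested and 0 were called by either method. At an unadjusted p under 0.05, 1 was lower (6.88% of all tested genes). *Ctsb*, a lysosomal protease that SRPX2 is known to bind, stood at 88.0 and 96.9 FPKM in WT, and 113 and 108 in TG (log2 difference 0.26, limma adjusted p = 0.45). *Ptk2*, which encodes focal adhesion kinase, stood at 33.3 and 30.4 FPKM in WT, and 28.9 and 30.9 in TG (log2 difference -0.09, adjusted p = 0.84). *Foxp2*, named after its values were seen, was too low for the test at 0.671 and 0.592 FPKM in WT, and 0.0485 and 0.0783 in TG, from 44, 60, 4 and 6 reads. Both TG libraries lay below both WT libraries.

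On the thrombin and coagulation side, 6 of 8 genes were tested, of which 4 were higher and 0 lower in TG without overlap (30.2% and 20.3% of all tested genes), and 0 were called by either method. *F3*, which encodes tissue factor, the starter of coagulation, stood at 24.2 and 31.4 FPKM in WT, and at 52.6 and 52.1 in TG. Its log2 difference of 0.91 (SE 0.19, limma adjusted p = 0.027) was short of the size and of the adjusted p required for a call. *F2r*, the thrombin receptor PAR1, overlapped at 33.4 and 39.7 FPKM in WT, and 45.9 and 35.6 in TG (log2 difference 0.15, adjusted p = 0.73). At an adjusted p under 0.05 and any size, 3 of the 35 tested list genes were lower (*Itgb3*, *Sort1*, *Pdgfrb*) and 2 higher (*F3* and thrombomodulin, *Thbd*), where 1.54% and 2.59% of all tested genes were (4.13% in all).

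**Figure D3:**
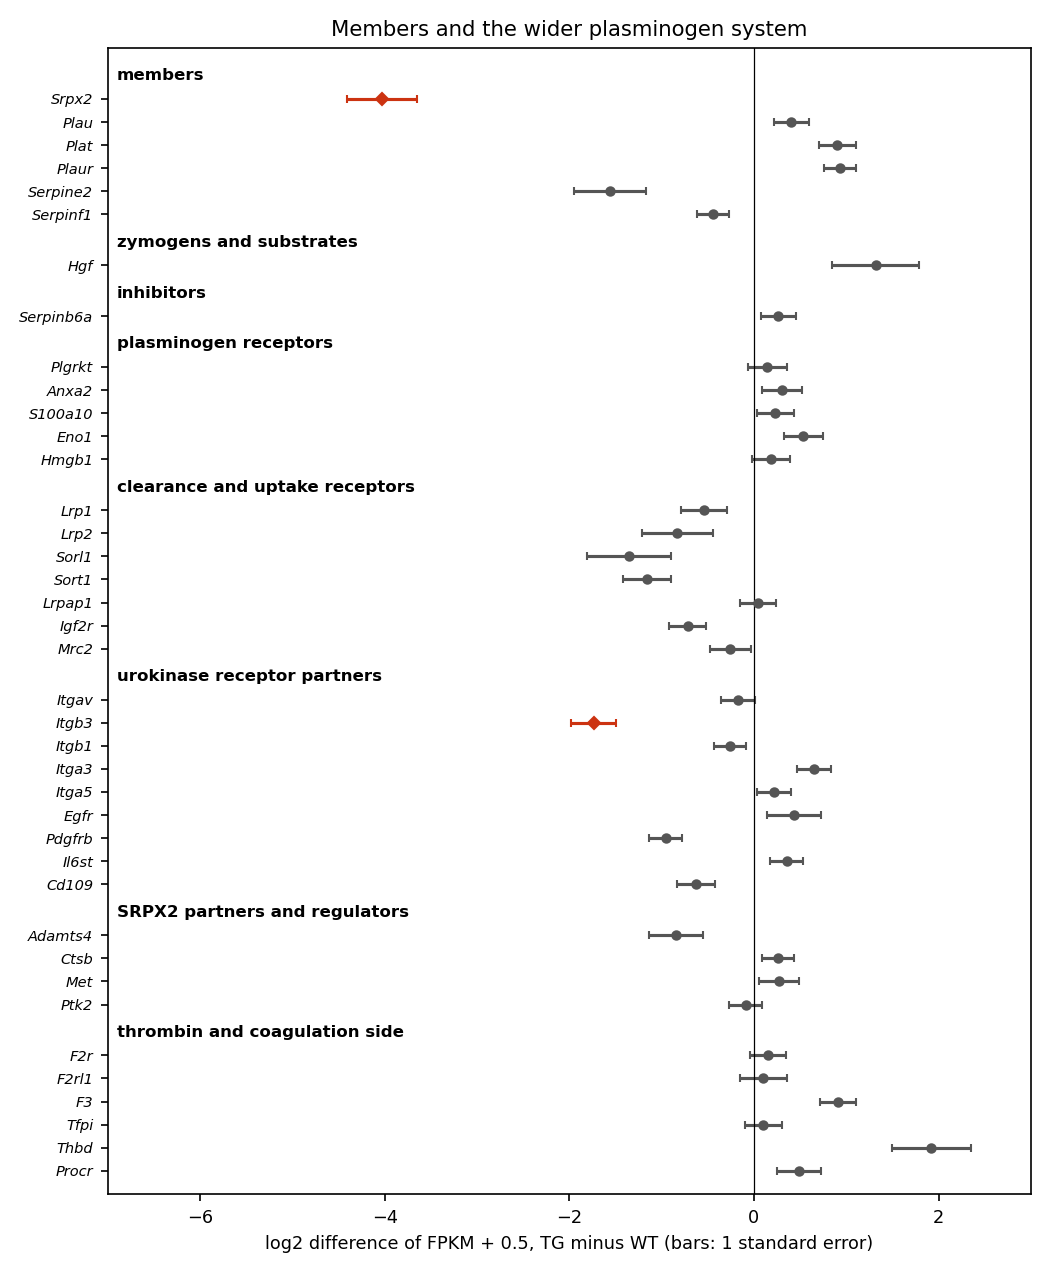
Log2 difference of FPKM + 0.5 (TG minus WT, bars of 1 SE) for the 6 tested members and 33 tested genes of the wider plasminogen system, grouped by role, with called genes as red diamonds. Besides *Srpx2* at -4.03, *Itgb3* at -1.74 is the only called gene, and 5 of the clearance and uptake receptors lie between -0.54 and -1.35.

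The chromosomal surroundings of the 7 genes were compared because the study asked whether lowered genes lie together. Among the 3 nearest tested genes on each side of each member, 42 in all, 1 was called lower and 1 higher, where 0.469% and 0.607% of all tested genes were. At an unadjusted p under 0.05, 4 were lower and 3 higher (6.88% and 12.7% of all), and voom called 3 lower and 1 higher (1.24% and 1.05% of all). Groups that did not overlap were found for 9 lower and 6 higher neighbours (35.7%, against 50.5% of all tested genes), with a median log2 difference of -0.04.

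*Srpx2* was flanked by genes that differed much less than it did. *Tspan6*, a tetraspanin gene transcribed away from *Srpx2* 7.21 kb to its left, stood at 54.8 and 40.2 FPKM in WT, and 17.7 and 22.6 in TG. Its groups did not overlap, and its log2 difference of -1.21 (SE 0.21) missed the threshold by limma on FPKM (adjusted p = 0.013) and passed it by voom (-1.29, adjusted p = 6.3e-04). *Cstf2*, a gene of mRNA 3′ end formation 0.127 Mb to the right, stood at 11.6 and 12.6 FPKM in WT, and 15.2 and 15.2 in TG (log2 difference 0.32, adjusted p = 0.41). Of the 368 tested genes of Chr X, 3 were called lower, *Srpx2* among them, where 0.469% of all tested genes were. The nearest other one to *Srpx2* was *Gpc3*, 81.3 Mb away. The median log2 difference of the chromosome was 0.13.

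The nearest tested genes on either side of *Srpx* had lower values in TG. Of the 6 tested genes around it, 3 were lower and 1 higher without overlap (20.3% and 30.2% of all tested genes). *Tspan7*, a further tetraspanin gene, 0.367 Mb to its right, stood at 15.3 and 20.5 FPKM in WT, and 3.82 and 4.39 in TG, and was called lower (log2 difference -1.99, SE 0.23, limma adjusted p = 0.0013). That call was lost without WT 1 (adjusted p = 0.036) and without WT 2 (0.066). *Sytl5*, 39.1 kb to the left, stood at 1.16 and 1.26 FPKM in WT, and 0.0907 and 0.0977 in TG. Its groups lay far apart at a low level, and its log2 difference of -1.52 did not pass by limma on FPKM (adjusted p = 0.082), while voom called it lower (-3.67, adjusted p = 0.00805).

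Beside *Plaur*, the called neighbour was a higher one. *Kcnn4*, a calcium-activated potassium channel gene 75.7 kb to its left, stood at 1.12 and 0.904 FPKM in WT, and 10.1 and 9.00 in TG (log2 difference 2.73, SE 0.26, limma adjusted p = 4.8e-04). The call was lost without WT 1 and without WT 2 (adjusted p = 0.029 each). *Smg9* and *Zfp428*, the nearest genes on either side of *Plaur*, had log2 differences of 0.31 and 0.65, neither passing (adjusted p = 0.54 and 0.10).

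*Serpine2* lies on Chr 1, with which the paper associated the transgene by fluorescent hybridization to DNA. On this chromosome 9 of 638 tested genes were called lower, where 0.469% of all tested genes were. Any part of the transgene in the difference of *Serpine2* was not tested. Its nearest tested neighbours were *Mrpl44*, 12.9 kb to the left with a log2 difference of -0.05 (limma adjusted p = 0.93), and *Cul3*, 0.406 Mb to the right with -0.04 (adjusted p = 0.95). Of the 6 tested genes around *Serpine2*, 3 were lower and 1 higher without overlap (20.3% and 30.2% of all tested genes). The lowest of these, *Wdfy1*, 18.2 kb to the left, stood at 15.5 and 11.9 FPKM in WT, and 8.41 and 6.65 in TG (log2 difference -0.82, limma adjusted p = 0.0745). The nearest gene called lower was *Pax3*, 1.60 Mb away. Around *Plat* the neighbours *Ikbkb* and *Ap3m2* had log2 differences of -0.09 and -0.13, and around *Plau* the neighbour *Vcl* had -0.04. *Gm30108*, on the other side of *Plau*, was seen in TG 1 alone, at 2.28 FPKM from 8 reads. Around *Serpinf1*, *Smyd4* had a log2 difference of 0.21 and *Wdr81* of -0.33. *Dph1*, 0.220 Mb to the left of *Serpinf1*, stood at 12.1 and 10.00 FPKM in WT, and 25.4 and 19.9 in TG (2.05 times the WT mean, limma adjusted p = 0.027). None of the neighbours of *Serpine2*, *Plat*, *Plau* and *Serpinf1* was called by either method.

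**Figure D4:**
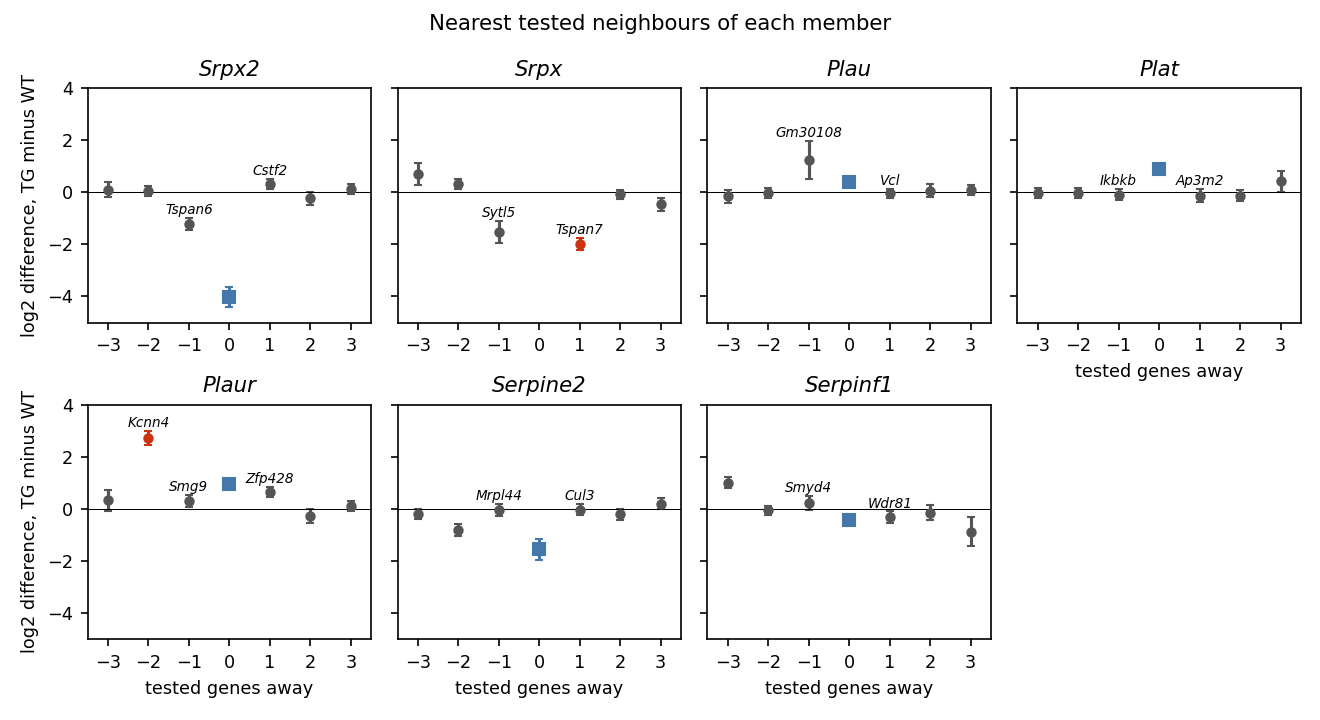
Log2 difference of FPKM + 0.5 (TG minus WT, bars of 1 SE) of each member (blue square, drawn where it was tested) and of the 3 nearest tested genes on each side, placed by their order along the chromosome. *Tspan7* beside *Srpx* (-1.99) and *Kcnn4* beside *Plaur* (2.73) are the called neighbours (red), and most others lie near 0.

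The genes whose profile over the 4 libraries lay nearest to that of *Srpx2*, by Euclidean distance of log2(FPKM + 0.5) centred on each gene's mean, were *Igfbp5* (distance 0.883), *Eng* (0.999), *Igfbp2* (1.03), *Gpc3* (1.10) and *Thbs2* (1.42). *Gpc3*, a membrane glypican that is also X-linked, had TG 1 above TG 2 as *Srpx2* did, at 5.48 and 8.99 FPKM in WT, and 1.03 and 0.0853 in TG. These values came from 110, 279, 26 and 2 reads, so that of TG 2 lies under the limit of 3 reads. *Igfbp5* and *Igfbp2*, binding proteins of insulin-like growth factors, stood at 0.647 and 0.475 FPKM and at 6.56 and 6.35 FPKM in TG, reductions of 97.4% and 95.2%. The paper places both in a cluster of lowered genes on Chr 1. *Eng*, a co-receptor for TGF-beta ligands, and *Thbs2*, a matricellular protein, were 90.5% and 90.0% lower in TG. Among the members, *Serpine2* was the nearest to *Srpx2*, 51st of the tested genes at a distance of 2.57. This likeness is a description over 4 libraries, 2 of each genotype.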

How the data were processed

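RNA was poly(A)-selected and sequenced in paired-end mode from 2 WT and 2 TG libraries. The authors used Rsubread for alignment to mm10 and for counts per gene, from which they made FPKM, and tested the counts with DESeq. The strand setting and the annotation are not given in the sources used here. The deposited values are FPKM, 1 column per library.

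TG was compared with WT on log2(FPKM + 0.5) by limma 3.58.1 (lmFit, then eBayes with trend, R 4.3.3) over the 11524 genes with a mean of at least 0.5 FPKM, with Benjamini-Hochberg adjustment over all of them. Genes were called at an adjusted p under 0.01 and a log2 difference of at least 1 in size. The fold differences on this scale understate those of low genes.

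Between libraries, low FPKM values of a gene differ by whole-number ratios, from which library totals and whole reads were derived for 15464 of the 15530 genes above 0. The scale of the totals was set where genes used for calibration gave whole-number lengths. The sums of the reads came to between 100.4% and 100.7% of the totals, and the cause of the excess was not tested. The common factor of some genes rests on their exonic length, and 33 tested genes had no reads recovered. Limits use the value of 3 reads, and intervals are exact Poisson intervals (scipy 1.17.1, Python 3.11.15). The tests were tried on simulated data with these depths. Neighbours were placed by symbol with RefSeq genes of GRCm38.p6 (23830 symbols), by distance between gene bodies. Promoters are from RefSeq, and 5 of the 7 members had an entry.

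The members, the lists and the tests were chosen with earlier results of these data known. The genes named are the members, the called genes and the 2 most abundant tested genes of each role, the nearest tested neighbour on each side and any called among 3 per side, the 5 profiles nearest to *Srpx2*, and *Xist*. Genes at 0, marker genes, *Sort1*, *Sorl1*, *Lrp2*, *Eno1*, *Hmgb1*, *Thbd*, *Foxp2*, *Wdfy1*, *Dph1* and *Pax3* are named outside that rule, after their values were seen. Some genes that the rule covers are not reported here. Alternatives were another pseudocount, filter, scaling or threshold, no variance trend, a replicate block, leaving out single libraries, voom on whole reads with median-ratio size factors, and distances between gene starts.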

Additional observations from a re-analysis of the deposited data

How the results depend on the processing

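The 6 tested members kept their direction under all 13 alternatives run for them, with log2 differences of -4.83 to -3.34 for *Srpx2*, -2.15 to -1.21 for *Serpine2*, -0.59 to -0.30 for *Serpinf1*, 0.32 to 0.49 for *Plau*, 0.68 to 1.13 for *Plat* and 0.85 to 0.95 for *Plaur*. *Srpx2* (-4.03) was at -3.57 with a pseudocount of 1, -4.63 with 0.1 and -4.83 by voom, and *Serpine2* (-1.56) at -2.04 with a pseudocount of 0.1 and -2.15 by voom. With 1 library left out, *Srpx2* ran from -4.71 to -3.34 and *Plat* (0.90) from 0.68 to 1.13, the ends being those without TG 1 and without TG 2.

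Counts of calls depended on the processing, and the cause was not tested. Against 54 genes lower and 70 higher, all genes above 0 gave 1 and 0, no variance trend 6 and 3, voom 142 and 121, and an adjusted p under 0.05 with the same size 121 and 229. Quantile normalization gave 55 lower and 47 higher, and after it the median log2 difference of all tested genes was -0.013 in place of 0.071. With 1 library left out, 1 to 47 genes were lower and 0 to 66 higher, the fewest being those without WT 1 (1 and 0) and without WT 2 (2 and 7), where a single WT library is assumed to vary like the TG pair.

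*Srpx2*, the 1 member called lower, was not called (0 members) with all genes above 0, with no variance trend, without WT 1 or without WT 2, a range of 0 to 1 with 1 library left out. *Itgb3*, the 1 list gene called lower, gave 0 with all genes above 0 (adjusted p = 0.077), no variance trend (0.024) and the replicate block (0.023), and 0 to 1 with 1 library left out. Voom called 5 list genes lower, and an adjusted p under 0.05 called 2 lower and 1 higher. Among neighbours, 1 lower and 1 higher became 0 lower with all genes above 0, with no variance trend and with the replicate block, and 0 higher with all genes above 0. They ran from 0 to 1 in each direction with 1 library left out, while voom called 3 lower and an adjusted p under 0.05 called 2 lower.

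Libraries with the same replicate number share a number only (correlation of their deviations -0.028 across genes), and with it as a replicate block 8 genes were lower and 12 higher. Of 487 values of single genes, 453 kept their side of the threshold, 28 lost it and 6 gained it. 10 values of 7 genes changed sign, each with 1 library left out, and none of these genes was called or differed by more than 0.15 (log2) with all libraries. Depth limits *Srpx* and the TG levels of *Srpx2* and *Serpine2*, which rest on 0 to 54 reads. With 2 libraries a genotype and no statement of their origin, genotype and cell line cannot be told apart.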
